A study of Mus musculus with 16 samples.

Results

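A set of 10 imprinted genes that lie outside the Igf2 locus, Dlk1, Peg3, Peg10, Plagl1, Mest, Grb10, Zim1, Ndn, Nnat and Sgce, was followed through 16 RNA sequencing libraries of the neonatal mouse cochlea. They were taken by gene symbol and make up 10 of the 50316 genes listed for each library. Values were given for all 10, and 9 had enough reads to be tested.

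RNA came from pooled P4 cochleae, with 4 libraries in each of 4 groups. Control mice were GLAST CreERT/+; Rpl22 HA/+, and DTR mice carried Lgr5 DTR/+ in addition. In all groups the Cre driver, active in cells of the greater epithelial ridge (GER) and in inner phalangeal cells, placed an HA tag on a ribosomal protein. The input RNA is the whole homogenate (5% of it) and the IP RNA is what was bound to tagged ribosomes in the remaining 95%, so that input and IP of 1 number come from 1 pool of cochleae. The study's methods give diphtheria toxin and tamoxifen at P1 for this experiment, whereas the sample labels give "No treatment" for the controls. Diphtheria toxin kills cells that make its receptor, here cells expressing Lgr5. The dissection took off Reissner's membrane, the lateral wall and the spiral ganglia, mice of both sexes were used in the study, and nothing in the labels tells apart the animals of a pool.

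Libraries held between 28089836 and 41966310 reads on genes, so that 3 reads were worth between 0.0715 and 0.107 CPM, the unit of the deposited values, which gives a gene's reads relative to all reads on genes in its library. The targeted gene followed its labels: Lgr5 had a mean of 63.3 ± 3.03 CPM in control input and 15.9 ± 3.69 CPM in DTR input (SD, n = 4), and of 36.6 ± 3.99 in control IP and 9.38 ± 1.40 in DTR IP. Slc1a3, the gene whose regulatory sequence drives the Cre, was no higher in IP than in input, at 236 ± 21.9 against 281 ± 14.3 CPM in control libraries. Sox2, a marker of supporting cells and the GER, was higher in control IP than in control input, at 89.9 ± 5.42 against 69.9 ± 4.41 CPM (adjusted p = 0.0379, and up to 0.101 with 1 library left out), and had 34.9 ± 5.39 CPM in DTR IP against 33.6 ± 5.98 CPM in DTR input (adjusted p = 0.929). Because these are bulk samples, fewer cells of a type and less RNA per cell cannot be told apart.

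An imprinted gene is transcribed mainly from the copy inherited from 1 parent, and the choice is set by DNA methylation laid down in the germ line at control regions, many of them rich in CpG dinucleotides. Most of these genes are expressed from the paternal copy; Zim1, and Grb10 in most tissues outside neurons, are expressed from the maternal copy. They are strongly expressed in growing embryonic and neonatal tissues, where many of them act on growth, and several are shut down as the tissue matures. Reads were not assigned to alleles here, so parent of origin was not measured.

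The windows below hold 300 bases around the annotated start, most of them before it (RefSeq, GRCm38.p6, 5′ to 3′ on the gene's strand, CG dinucleotides in capitals). They are shown for Zim1 and Peg3, neighbours on chromosome 7 whose ratio within each library is reported, for Plagl1, which was higher in ribosome-bound RNA, and for Mest, the member that fell after damage.
Zim1: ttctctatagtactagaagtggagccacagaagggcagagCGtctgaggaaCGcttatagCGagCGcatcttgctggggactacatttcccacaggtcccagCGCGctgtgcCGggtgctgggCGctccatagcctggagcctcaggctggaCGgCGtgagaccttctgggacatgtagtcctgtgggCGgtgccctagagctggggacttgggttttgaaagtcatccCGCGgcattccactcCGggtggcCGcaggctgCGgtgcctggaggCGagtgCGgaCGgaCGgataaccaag
Peg3: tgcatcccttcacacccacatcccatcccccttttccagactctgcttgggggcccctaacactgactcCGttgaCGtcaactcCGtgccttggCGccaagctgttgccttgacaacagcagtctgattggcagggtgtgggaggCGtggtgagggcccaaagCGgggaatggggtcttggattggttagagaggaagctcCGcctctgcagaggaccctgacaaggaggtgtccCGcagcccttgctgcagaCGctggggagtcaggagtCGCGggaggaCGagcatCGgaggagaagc
Plagl1: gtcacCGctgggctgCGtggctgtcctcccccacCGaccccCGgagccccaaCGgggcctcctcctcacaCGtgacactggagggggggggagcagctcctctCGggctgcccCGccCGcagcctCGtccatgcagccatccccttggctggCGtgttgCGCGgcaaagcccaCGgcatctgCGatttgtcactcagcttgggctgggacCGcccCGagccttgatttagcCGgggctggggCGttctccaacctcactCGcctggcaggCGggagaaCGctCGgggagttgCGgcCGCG
Mest: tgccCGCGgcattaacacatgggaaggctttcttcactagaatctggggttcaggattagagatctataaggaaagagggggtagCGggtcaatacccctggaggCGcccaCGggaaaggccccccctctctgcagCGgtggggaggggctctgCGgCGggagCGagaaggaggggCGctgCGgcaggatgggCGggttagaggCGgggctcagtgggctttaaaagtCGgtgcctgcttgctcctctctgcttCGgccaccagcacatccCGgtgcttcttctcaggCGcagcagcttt
The Zim1 window, chr7:6696383-6696682 on the minus strand, holds 20 CG dinucleotides, and 26.5% of the 32851 windows in the table hold at least as many. The Peg3 window, chr7:6730370-6730669 on the minus strand, holds 13 (37.9% of windows). The Plagl1 window, chr10:13090582-13090881 on the plus strand, holds 26 (16.9%). The Mest window, chr6:30737803-30738102 on the plus strand, holds 17 (31.4%). The median window holds 7. Windows were found for 8 of the 10 genes, and across their 11 windows the count ran from 8 at another start of Mest (chr6:30733256-30733555) to 45 at Grb10 (chr11:12037371-12037670), where 1.93% of windows hold as many. Methylation of these bases was not measured.

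Dlk1 encodes a membrane protein with EGF repeats that is related to the ligands of Notch receptors. It was listed at 0 CPM in all 16 libraries. A second identifier with the same symbol had no value in any library. The zero extends beyond the gene. Across chr12:109319452-109689544, 58 annotated genes held 7 reads in all over the 16 libraries, and no gene of the stretch had more than 3. Only 2 of the 58, Dlk1 and Rtl1, are protein-coding. Meg3, the non-coding RNA of the same imprinted cluster, had 1 read, Rian had 3 and Rtl1 had 0. Genes on either side were counted, with 3024 reads for Begain and 674 for Mirg. Of the 157 protein-coding genes that share a symbol with an identifier without values, 53 (33.8%) had at most 3 reads in all, against 3634 of the 21463 others (16.9%). Why the stretch held so few reads was not tested. Dlk1 is given as listed at 0, with no fold and no test, and its level in the cochlea is not read from these values.

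**Figure D1:**
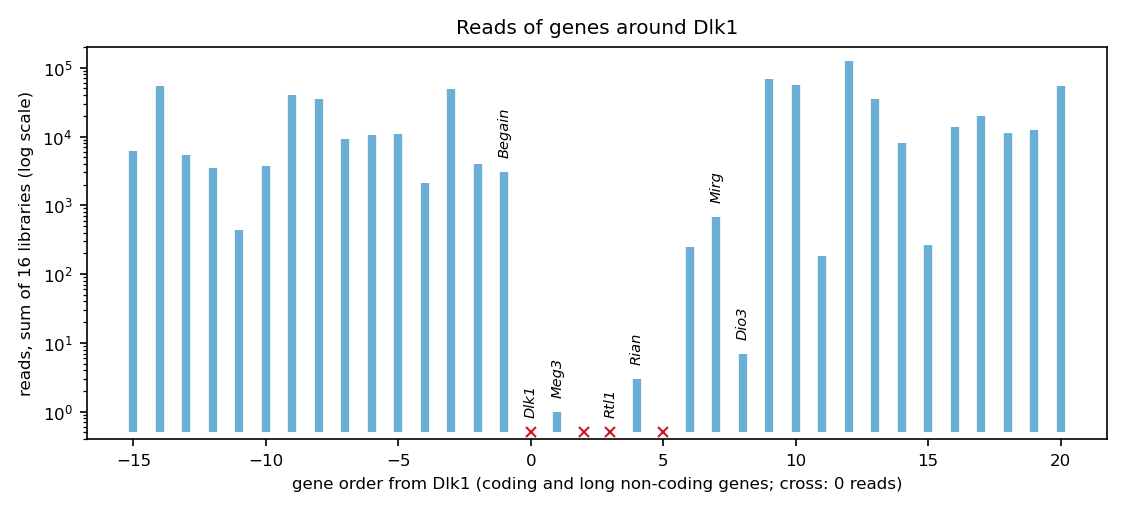
Reads summed over the 16 libraries (vertical axis, log scale) for coding and long non-coding genes in their order along the chromosome, counted from Dlk1 at 0 on the horizontal axis; crosses mark genes with 0 reads. Dlk1, Rtl1 and 2 further genes are at 0, Meg3 is at 1 and Rian at 3, while Begain at 3024 and Mirg at 674 reads lie on either side.

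Per kilobase of exon, the 9 other genes spanned a wide range. In control input Nnat was highest at 53.9 ± 5.33 CPM per kb (SD, n = 4), followed by Ndn at 39.2 ± 6.89, Mest at 31.8 ± 2.71 and Grb10 at 29.0 ± 2.34. Neighbours in the order among these 4 overlapped. Peg3 at 6.59 ± 1.22 and Sgce at 5.33 ± 0.168 CPM per kb came next and also overlapped. Plagl1 stood below them at 1.36 ± 0.229, Peg10 at 0.665 ± 0.110 and Zim1 at 0.115 ± 0.0638 CPM per kb, with no overlap between neighbours in the order. Nnat and Ndn, and Peg3 and Sgce, did not overlap in either IP group. The order was the same in control IP and DTR input, and in DTR IP Grb10 (17.5 ± 2.39) and Mest (15.8 ± 1.78) changed places with overlapping libraries. Zim1 and Peg10 overlapped in both IP groups, at 0.657 ± 0.407 and 0.841 ± 0.302 CPM per kb in control IP, and Peg10 and Plagl1 overlapped in DTR IP.

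**Figure D2:**
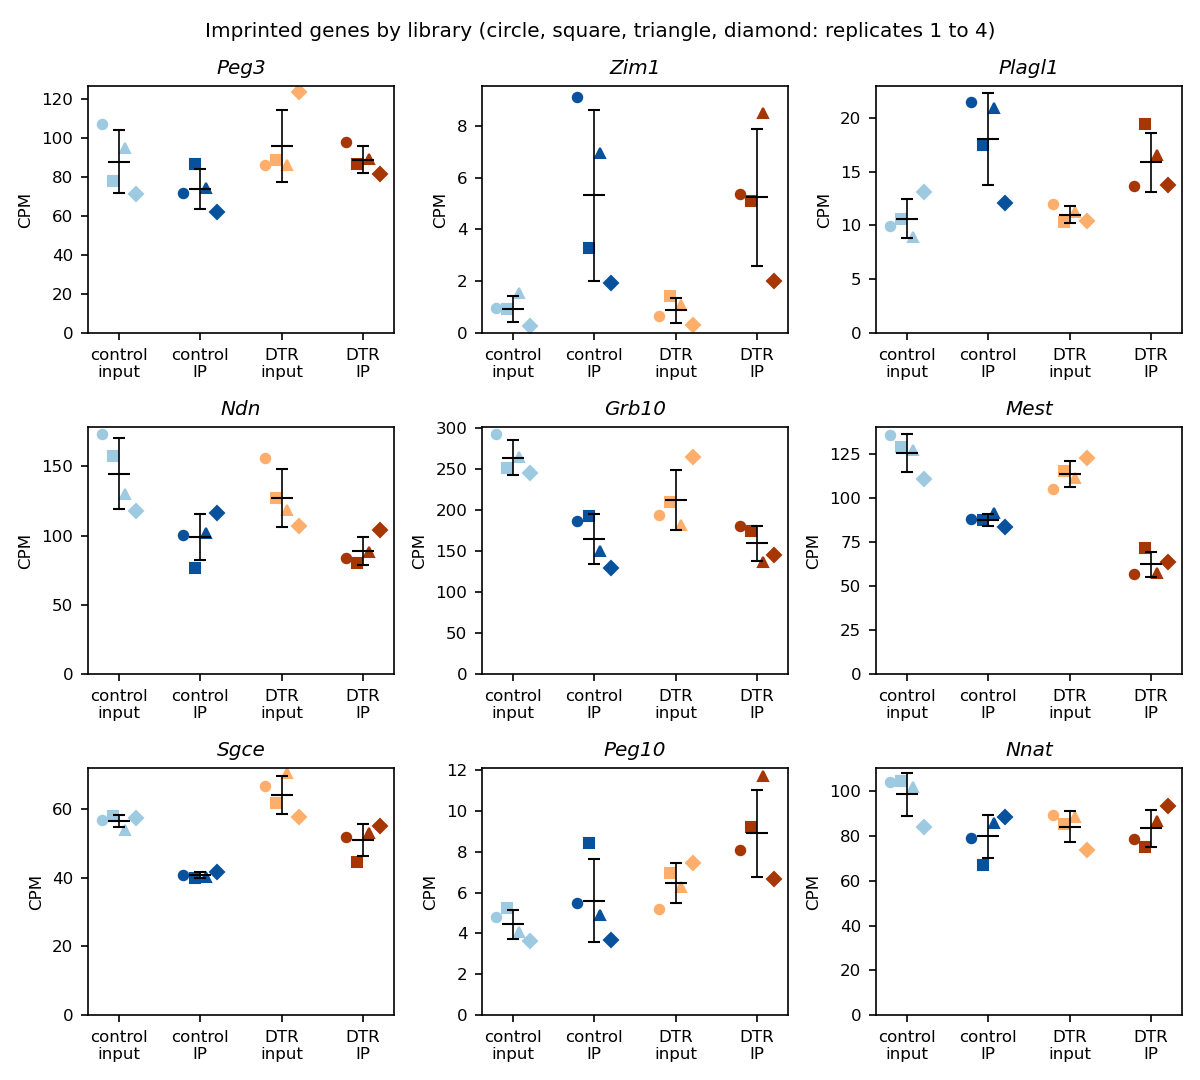
CPM of the 9 tested genes in each library (vertical axes from 0), by group on the horizontal axes. Symbols mark replicates 1 to 4, and bars the mean ± SD of 4 libraries. Zim1 is higher in every IP library than in any input library, Mest lower in every IP library than in any input library, and Mest is lowest in DTR IP.

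Ribosome-bound RNA was compared with input to see which of these transcripts were over- or under-represented on the tagged ribosomes. In this ratio the cells that hold a transcript and the part of it bound to ribosomes cannot be told apart. In control cochleae 2 of the 9 tested genes, Zim1 and Plagl1, were higher in IP and 4, Grb10, Mest, Ndn and Sgce, were lower (limma, adjusted p under 0.05 over 16994 genes). Of all tested genes, 19.3% were called higher and 20.7% lower in this comparison. After damage the same 6 genes were called in the same directions in DTR IP against DTR input, 6 of 6 in each list, where 18.6% of all genes were called higher and 20.5% lower. The median log2 fold change (LFC) of the 9 genes was -0.28 in control and -0.10 in DTR cochleae, beside -0.0012 and -0.027 over all genes.

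Zim1 (chr7:6671269-6696450, minus strand), a zinc finger gene next to Peg3, showed the widest difference of the 9 genes. Control input libraries 1 to 4 had 0.953, 0.929, 1.55 and 0.285 CPM, and the IP libraries of the same pools had 9.09, 3.29, 6.94 and 1.93 CPM. DTR input libraries had 0.650, 1.43, 1.10 and 0.305 CPM, and the DTR IP libraries 5.37, 5.09, 8.48 and 2.01 CPM. Replicate 4 was lowest in all 4 groups, and every IP library lay above every input library. Within pools, IP exceeded input by between 3.54-fold and 9.54-fold in control and between 3.55-fold and 8.26-fold in DTR cochleae. The LFC, on the log2(CPM + 0.5) scale, which understates the change of a gene this low, was 1.92 ± 0.42 (SE) in control (adjusted p = 0.00124) and 2.04 ± 0.42 in DTR (adjusted p = 0.000828). These values rest on few reads, between 10 and 64 per library in input and between 59 and 304 in IP. Zim1 reached 0.5 CPM, the minimum for testing, in every library of the IP groups but not of the input groups. It was thus tested because of its level in IP, where it is higher. The spread of Zim1 between replicates, an SD of 0.69 on the log2 scale, was larger than that of 98.0% of tested genes. The stricter criteria of the study (LFC of at least 2, adjusted p under 0.05 and a separation above 1.5, the lowest value of the higher group over the highest of the lower) were met by Zim1 in DTR cochleae, with a separation of 1.51, and not in control cochleae, where both the LFC of 1.92 and the separation of 1.42 fell short. The DTR value is at the limit: its LFC was under 2 without DTR input 1, DTR IP 2, DTR IP 3 or DTR input 4 (down to 1.76), with the libraries centred on their medians and with a pseudocount of 1 (1.68). No other member met them, and 0.789% of all genes met them as higher and 0.471% as lower in control, and 0.730% and 0.247% in DTR.

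Plagl1 (chr10:13060504-13131694, plus strand), also called Zac1, encodes a zinc finger transcription factor that restrains proliferation and acts on other imprinted genes. Control input libraries had 9.96, 10.6, 8.90 and 13.1 CPM, and control IP libraries 21.4, 17.5, 20.9 and 12.1 CPM. In the DTR pools, input had 12.0, 10.3, 11.3 and 10.4 CPM and IP had 13.7, 19.5, 16.6 and 13.7 CPM. The DTR groups did not overlap, and in control the IP library of replicate 4 was below the input library of its own pool. The LFC was 0.74 ± 0.17 in control (adjusted p = 0.00202) and 0.49 ± 0.17 in DTR (adjusted p = 0.0297). The DTR call was lost without DTR input 2 (adjusted p = 0.0695), DTR IP 2 (0.101), DTR IP 3 (0.0672) or DTR input 4 (0.0612).

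**Figure D3:**
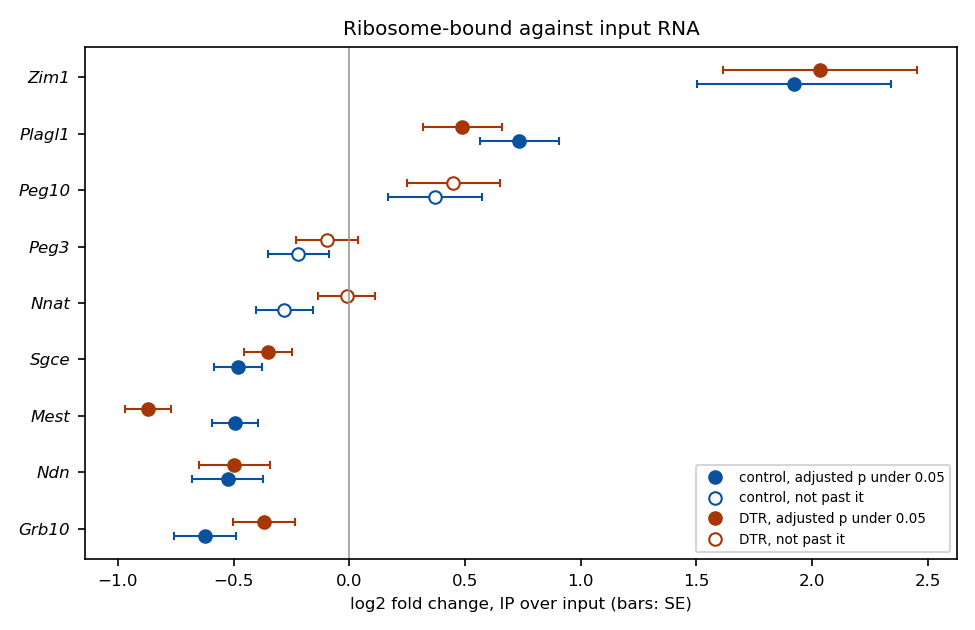
LFC of IP over input (horizontal axis, bars ± SE of the fit) for the 9 tested genes in control and DTR cochleae, with filled points for an adjusted p under 0.05. Zim1 lies near 2 in both, Plagl1 between 0.49 and 0.74, and Grb10, Mest, Ndn and Sgce lie between -0.87 and -0.35.

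Mest (chr6:30723547-30748465, plus strand) encodes an enzyme of the alpha/beta hydrolase fold in the endoplasmic reticulum and is widely expressed in embryonic mesoderm. Its control input libraries had 136, 129, 127 and 111 CPM, and its control IP libraries 88.0, 87.7, 91.3 and 83.3 CPM. In DTR cochleae, input had 105, 115, 111 and 123 CPM and IP had 56.8, 71.8, 57.2 and 63.7 CPM. Every IP library was below every input library, and the IP libraries of the DTR pools were below those of the controls. The LFC was -0.49 ± 0.10 in control (adjusted p = 0.000628) and -0.87 ± 0.10 in DTR (adjusted p = 2.1e-06).

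Grb10 (chr11:11930508-12038683, minus strand) encodes an adaptor that binds the activated insulin and IGF1 receptors and dampens their signal. Control input libraries had 293, 251, 265 and 246 CPM, against 187, 193, 150 and 130 CPM in control IP. DTR input libraries had 195, 210, 182 and 265 CPM, against 181, 175, 137 and 145 CPM in DTR IP. In deposited CPM the groups did not overlap in either treatment. The highest DTR IP library, at 180.9 CPM, still came close to the lowest DTR input library, at 181.9 CPM. After quantile normalization, on which the test rests, the DTR groups overlapped (separation 0.991). The LFC was -0.62 ± 0.13 in control (adjusted p = 0.00111) and -0.37 ± 0.13 in DTR (adjusted p = 0.0358). The DTR call was lost without DTR input 2, DTR IP 3, DTR input 4 or DTR IP 4 (adjusted p from 0.0607 to 0.132), without the filter on low values (0.0811) and with only the compared groups in the fit (0.0581).

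Ndn (chr7:62346569-62350262, plus strand) encodes necdin, a protein of the MAGE family that restrains growth in neurons. Its libraries had 174, 157, 130 and 118 CPM in control input and 101, 76.8, 102 and 116 CPM in control IP. They had 156, 127, 119 and 107 CPM in DTR input and 83.6, 80.0, 87.9 and 104 CPM in DTR IP. IP was below input in every pool, but by little in replicate 4, at 116 against 118 CPM in control and 104 against 107 CPM in DTR. The LFC was -0.52 ± 0.15 in control (adjusted p = 0.0105) and -0.50 ± 0.15 in DTR (adjusted p = 0.0150), and without DTR input 1 the latter was not past the threshold (adjusted p = 0.0595).

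Sgce (chr6:4674350-4747207, minus strand) encodes epsilon-sarcoglycan, a membrane protein of the dystrophin-associated complex. Control input libraries had 56.9, 57.9, 54.0 and 57.5 CPM and control IP libraries 40.9, 39.9, 40.3 and 41.8 CPM. DTR input libraries had 66.6, 61.7, 70.5 and 57.7 CPM and DTR IP libraries 51.9, 44.5, 53.0 and 55.0 CPM. The groups did not overlap, and the replicates lay close together, with an SD of 0.12 on the log2 scale that was above that of only 5.23% of tested genes. The LFC was -0.48 ± 0.10 in control (adjusted p = 0.00101) and -0.35 ± 0.10 in DTR (adjusted p = 0.0105). With the trend of LFC on exon length removed, a setting chosen after seeing the data, the DTR value was -0.29 (adjusted p = 0.0646).

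Peg3, Peg10 and Nnat did not pass the test in either comparison. Peg3 (chr7:6703892-6730431, minus strand), a large zinc finger protein, had between 71.4 and 107 CPM in control input and between 62.0 and 86.8 CPM in control IP, with an LFC of -0.22 ± 0.13 (adjusted p = 0.206). In DTR cochleae its LFC was -0.10 ± 0.13 (adjusted p = 0.604). Nnat (chr2:157560078-157562522, plus strand), a small membrane protein of the endoplasmic reticulum known from the developing brain, had an LFC of -0.28 ± 0.12 in control (adjusted p = 0.0781) and -0.01 ± 0.12 in DTR (adjusted p = 0.962). Its 95% intervals ran from -0.54 to -0.02 and from -0.27 to 0.25. The control difference passed the threshold without quantile normalization (adjusted p = 0.0368), without control input 4 (0.0396), without control IP 4 (0.0345) and with the exon length trend removed (0.00281).

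Peg10 (chr6:4747306-4760517, plus strand), a gene derived from a retrotransposon and needed in the placenta, was low. Its libraries had 4.79, 5.27, 4.06 and 3.62 CPM in control input and 5.47, 8.41, 4.88 and 3.66 CPM in control IP. They had 5.17, 6.96, 6.26 and 7.46 CPM in DTR input and 8.07, 9.22, 11.7 and 6.64 CPM in DTR IP. IP and input overlapped in both treatments. The LFC was 0.37 ± 0.20 in control (adjusted p = 0.159) and 0.45 ± 0.20 in DTR (adjusted p = 0.0876). When same-numbered libraries were treated as a block, the DTR value was past the threshold (adjusted p = 0.0497), as it was with the exon length trend removed (0.0369).

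Markers of other cochlear cells moved in the same comparisons. Of all tested genes, 19.3% were called higher and 20.7% lower in control IP against input, and 18.6% and 20.5% in DTR. In control IP against input, 7 of 10 mesenchyme markers, 9 of 10 Schwann cell markers, 8 of 10 endothelial markers and 10 of 10 macrophage markers were lower, and none of these 4 lists had a marker that was higher. The summed level of the mesenchyme markers was between 7126 and 7664 CPM in control input and between 4207 and 5370 CPM in control IP. That of the Schwann cell markers was between 3226 and 5434 CPM and between 1023 and 1504 CPM. No marker of any list was at 0 in every library of a group. In DTR IP against input, 9 of 10 Schwann cell, 9 of 10 endothelial and 10 of 10 macrophage markers were lower, whereas for mesenchyme 3 were lower and 1 was higher, with a median LFC of -0.18. Grb10, Mest, Ndn and Sgce were lower in IP in both treatments, and the part of other cells in their values was not tested. In control cochleae supporting cell markers went both ways, with 4 of 10 higher and 4 lower. For hair cells 1 was higher and 9 lower, and for neurons 1 was higher and 4 lower.

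The response to the loss of Lgr5+ cells was read from DTR against control libraries, separately in IP and input. In IP, Mest was the member past the threshold, and it was lower; 7.30% of all tested genes were called lower and 8.44% higher. From a mean of 87.6 ± 3.30 CPM in control IP it fell to 62.4 ± 7.02 CPM in DTR IP (SD, n = 4), with an LFC of -0.52 ± 0.10 (adjusted p = 0.00115) and no overlap between the groups. In input Mest went from 126 ± 10.7 to 114 ± 7.25 CPM, an LFC of -0.14 ± 0.10 (adjusted p = 0.440). The difference between the change in IP and the change in input, -0.38 ± 0.14, was itself not past the threshold (adjusted p = 0.735, unadjusted p = 0.0147). Mest shares 912 bases of exon, 23.1% of its exon length, with Copg2 on the opposite strand, and the library kit does not mark strand, so reads there cannot be told apart. Copg2, a coat protein subunit of transport vesicles, was itself lower after damage, from 41.2 to 26.8 CPM in IP (LFC -0.64 ± 0.15, adjusted p = 0.00573) and from 76.7 to 45.5 CPM in input (LFC -0.73 ± 0.15, adjusted p = 0.00257).

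**Figure D4:**
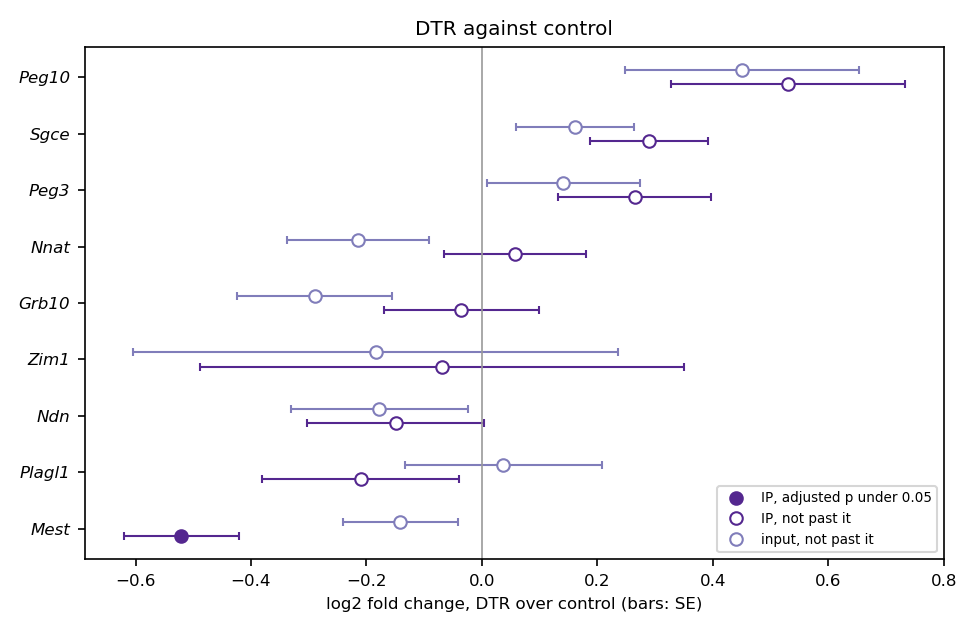
LFC of DTR over control (horizontal axis, bars ± SE of the fit) for the 9 tested genes in IP and input, with filled points for an adjusted p under 0.05. Mest in IP, at -0.52, carries the filled point, Peg10 lies at 0.53 in IP and 0.45 in input, and the bars of Zim1 are the widest.

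Sgce in IP lay just outside the threshold. In deposited CPM all 4 DTR IP libraries, at 44.5 to 55.0 CPM, were above all control IP libraries, at 39.9 to 41.8 CPM. After quantile normalization, on which the test rests, the groups overlapped (separation 0.963). The LFC was 0.29 ± 0.10 (adjusted p = 0.0636). When same-numbered libraries were treated as a block Sgce passed (adjusted p = 0.0348), which makes 2 members called in place of 1. The block also raised the calls among all 16994 genes, from 2674 to 3783. Sgce passed as well without quantile normalization (0.0228), without DTR IP 2 (0.0264) and without control IP 4 (0.0428). Its input LFC was 0.16 ± 0.10 (adjusted p = 0.380). No member met the study criteria after damage (an absolute LFC of at least 1 here), which 1.12% of all genes met as higher and 1.34% as lower in IP, and 1.34% and 1.00% in input.

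Peg10, whose start lies 98 bases from that of Sgce on the other strand, was at a mean of 5.61 ± 2.02 CPM in control IP and 8.91 ± 2.14 in DTR IP, with an LFC of 0.53 ± 0.20 (adjusted p = 0.0870). In input it was at 4.43 ± 0.733 and 6.46 ± 0.993 CPM, with an LFC of 0.45 ± 0.20 (adjusted p = 0.183). The groups overlapped in both cases, and without control IP 2 the IP value passed (0.68, adjusted p = 0.0326).

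In input no member was called by limma, edgeR or DESeq2, against 7.17% of all genes called higher and 5.21% lower. At an unadjusted p under 0.05 there were 2, Peg10 and Grb10. The share of all genes past this looser threshold was not counted, so nothing is read from this count. At the adjusted threshold 12.4% of all genes passed in either direction and no member did. Grb10 had an LFC of -0.29 ± 0.13 (adjusted p = 0.201), from a mean of 264 ± 21.3 to 213 ± 36.5 CPM, and without DTR input 4, its highest DTR library at 265 CPM, the value was -0.40 (adjusted p = 0.0494). In IP its LFC was -0.04 ± 0.13 (adjusted p = 0.899), with a 95% interval from -0.32 to 0.25.

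For the growth-restraining genes Plagl1 and Ndn the IP values were -0.21 ± 0.17 (adjusted p = 0.466) and -0.15 ± 0.15 (adjusted p = 0.580), and for Peg3 0.26 ± 0.13 (adjusted p = 0.205). Nnat had 0.06 ± 0.12 (adjusted p = 0.813). The interval of Zim1, from -0.95 to 0.81 around -0.07, leaves a change within it not detectable in these libraries. No member was called for a difference between the change in IP and the change in input by limma, edgeR or DESeq2. Of all genes limma called 0% higher and 0.0118% lower. Of the members 1, Mest, was at an unadjusted p under 0.05. The share of all genes past that threshold was not counted, so nothing is read from this count either.

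Cell markers moved with damage too. Of all tested genes, 8.44% were called higher and 7.30% lower in IP, and 7.17% and 5.21% in input. In DTR IP against control IP, 6 of 10 supporting cell markers were lower and 1 was higher, with a median LFC of -1.05. Mesenchyme markers were higher for 5 of 10, and their summed level was between 5608 and 7064 CPM in DTR IP beside 4207 to 5370 CPM in control IP. Macrophage markers were higher for 7 of 10 in IP and for 8 of 10 in input. Their summed level was between 52.0 and 86.6 CPM in DTR IP beside 26.6 to 40.7 CPM in control IP. Endothelial markers were higher in IP for 3 of 10 and hair cell markers for 2, with none lower. Schwann cell markers were lower for 2 of 10 in IP and for 8 of 10 in input, and neuronal markers for 2 of 10 in each, with none higher. The part of these cells in the values of Mest was not tested.

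Adjacent genes of an imprinted cluster were then set against each other within each library, a comparison chosen after the values had been seen. With 4 libraries in each group an exact permutation test (2-sided) cannot go below 0.0286, and with 20 such tests, 5 gene pairs in 4 comparisons, the lowest Benjamini-Hochberg value was 0.0816, so that none passed. The test shuffled the libraries of both groups freely, and the SE treated them as independent. Input and IP of 1 number share a pool, and this pairing was not used here. Peg3 and Zim1 lie 7441 bases apart on the same strand. The log2 ratio of Zim1 to Peg3 was -5.93 ± 0.42 in control input and -3.79 ± 0.83 in control IP (SD, n = 4), a difference of 2.14 ± 0.47 (SE). In DTR cochleae the difference was 2.13 ± 0.52, and in neither treatment did IP and input libraries overlap. The ratio to Peg3 of Usp29, which starts 146 bases from it on the other strand, was higher in IP by 0.65 ± 0.29 in control (exact p = 0.114) and 0.38 ± 0.45 in DTR (exact p = 0.400).

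Nnat lies within an intron of Blcap, on the opposite strand, and shares no exon with it. Blcap, a membrane protein first described in bladder cancer, was higher in IP, with an LFC of 1.72 ± 0.10 in control and 1.56 ± 0.10 in DTR (adjusted p = 7.1e-10 and 2.7e-09). The log2 ratio of Blcap to Nnat went from -0.34 ± 0.26 in control input to 1.66 ± 0.31 in control IP, a difference of 2.00 ± 0.20. In DTR cochleae the difference was 1.57 ± 0.17, and the IP and input libraries did not overlap in either treatment.

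Sgce and Peg10 start head to head. The log2 ratio of Sgce to Peg10 was lower in IP by 0.85 ± 0.22 in control (3.57 ± 0.16 in input and 2.71 ± 0.42 in IP, exact p = 0.0286) and by 0.80 ± 0.26 in DTR (exact p = 0.0571). For Copg2 over Mest the difference between IP and input was -0.41 ± 0.16 in control and 0.05 ± 0.10 in DTR. In input this ratio went from -0.71 ± 0.15 in control to -1.29 ± 0.08 in DTR.

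**Figure D5:**
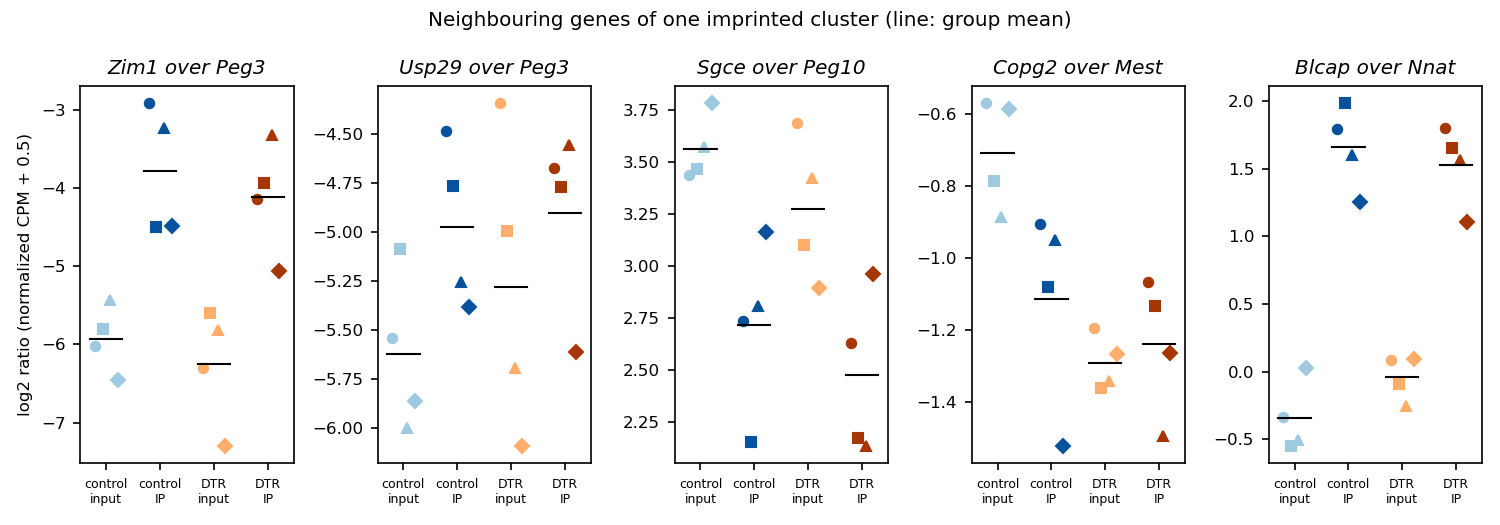
Log2 ratio of normalized CPM + 0.5 (vertical axes, each with its own range) between adjacent genes in each library, by group on the horizontal axes; lines are means of 4 libraries. Zim1 over Peg3 and Blcap over Nnat are higher in every IP library than in the input libraries of the same treatment, with differences of 1.57 to 2.14.

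Other genes of the same imprinted clusters were tested for 19 of the 31 on the list. Beside this list and those that follow, 19.3% of all genes were called higher and 20.7% lower in control IP against input. In DTR IP against input the shares were 18.6% and 20.5%. Of these 19 genes, 6 were higher and 4 lower in control IP against input, with a median LFC of 0.31. In DTR IP against input 7 were higher and 4 lower, with a median of 0.32. Mkrn3, a RING finger gene of the Ndn cluster, had the highest LFC, 3.31 ± 0.22 in control and 3.45 ± 0.22 in DTR (adjusted p = 2.8e-09 and 2.1e-09), from 10.6 to 113 CPM in control cochleae. Its neighbour Ndn was lower in IP in the same libraries. Pon2, an antioxidant lactonase of the Peg10 cluster, had 0.99 ± 0.13 and 1.22 ± 0.13. Mirg, the host of microRNAs at the far end of the Dlk1 cluster, was higher too (0.90 ± 0.19 and 1.26 ± 0.19), at means of 0.553 and 1.40 CPM in control input and IP.

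After damage 3 of these 19 were lower and none was higher, both in IP and in input. Of all genes, 7.30% were called lower and 8.44% higher in IP, and 5.21% and 7.17% in input. These shares also stand beside the counts after damage in the lists that follow. The 3 genes belong to the clusters of Mest and Grb10. Mest itself was called lower in IP only, and Grb10 in neither. Cep41, a ciliary protein gene of the Mest cluster, went from 164 to 29.0 CPM in IP (LFC -2.53 ± 0.16, adjusted p = 1.9e-09) and from 337 to 39.4 CPM in input (LFC -3.01 ± 0.16, adjusted p = 1.9e-10), and it met the study criteria in both. Cobl, an actin nucleator gene next to Grb10, had -0.97 ± 0.14 in IP and -0.80 ± 0.14 in input (adjusted p = 9.7e-05 and 0.000720). Copg2 is the third, with the values given beside Mest.

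Among imprinted genes of other clusters 25 of 28 were tested. In control IP against input 6 were higher and 3 lower, and in DTR 6 and 4, with medians of 0.08 and 0.10. Kcnq1ot1, an antisense non-coding RNA, had 1.49 ± 0.35 and 1.79 ± 0.35, Rasgrf1, a Ras exchange factor, 1.68 ± 0.26 and 1.00 ± 0.26, and the amino acid transporter gene Slc38a4 -1.47 ± 0.26 and -0.99 ± 0.26. In DTR IP against control IP 2 were higher and 2 lower. Slc22a3, an organic cation transporter gene, went from 106 to 13.7 CPM (LFC -2.91 ± 0.24, adjusted p = 6.5e-08), and Cdkn1c, an inhibitor of cyclin-dependent kinases, from 365 to 569 CPM (LFC 0.72 ± 0.10, adjusted p = 6.9e-05). In DTR input against control input 4 were higher and 1 lower, Slc22a3, with Sfmbt2, a Polycomb group gene, at 1.02 ± 0.24. For comparison, Igf2 and H19 had IP over input LFCs of 3.49 ± 0.14 and 3.89 ± 0.16 in control cochleae, above the highest of the 9 genes, 1.92.

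Relatives of the members without known imprinting were tested for 12 of 13. Plagl2, a paralog of Plagl1 that promotes proliferation, was higher in IP by 2.30 ± 0.18 in control and 2.29 ± 0.18 in DTR (adjusted p = 1.2e-08 and 1.7e-08), and Plag1 by 1.23 ± 0.23 and 1.62 ± 0.23. Plagl1 had 0.74 and 0.49 in the same comparisons. In all, 3 relatives were higher and 4 lower in control IP, and 2 were higher and 3 lower in DTR IP. Sgcd, a sarcoglycan relative of Sgce, had -0.62 ± 0.17 and -0.52 ± 0.17, beside -0.48 and -0.35 for Sgce. The DTR call of Sgcd was lost without DTR input 2 (adjusted p = 0.0708), without DTR IP 3 (0.0738) or with the exon length trend removed (0.0519). After damage 2 were called in input, both higher, Grb7 (0.78 ± 0.17) and Sgca (0.73 ± 0.21). Sgca was near the floor, at means of 0.194 CPM in control input and 0.740 CPM in DTR input. Only in a DTR group, where it is higher, could it reach the 0.5 CPM needed for testing. The Sgca call was lost without replicate 1 or 2 of either input group (adjusted p from 0.0806 to 0.103).

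All 12 signalling partners of Grb10 and Dlk1 were tested. In control IP against input 5 were higher and 5 lower, and in DTR 4 and 4. The receptors that Grb10 binds were higher in IP, Insr by 0.90 ± 0.15 and 0.86 ± 0.15 and Igf1r by 0.72 ± 0.11 and 0.96 ± 0.11 in control and DTR (adjusted p = 8.7e-05, 0.000157, 3.9e-05 and 1.9e-06), whereas Grb10 was lower. Irs2, a docking protein for the same receptors, had 0.68 ± 0.11 and 0.63 ± 0.11. Tsc2, which holds back mTORC1, had -1.23 ± 0.21 and -1.19 ± 0.21. Of the Notch receptors, Notch1 had -1.02 ± 0.14 and -1.08 ± 0.14 and Notch3 -0.89 ± 0.16 and -0.94 ± 0.16. After damage 2 were past the threshold as higher in IP, Igf1r (0.35 ± 0.11, adjusted p = 0.0359) and Irs2 (0.41 ± 0.11, adjusted p = 0.0119), and 1 as lower, Notch3 (-0.46 ± 0.16, adjusted p = 0.0498). The Igf1r call was lost with edgeR and DESeq2 (adjusted p from 0.130 to 0.156) and without DTR IP 2, DTR IP 3, control IP 3 or control IP 4 (up to 0.111). The Irs2 call was lost with edgeR (up to 0.0536), and that of Notch3 without any of 7 of the 8 compared libraries, the exception being DTR IP 4 (up to 0.134). The Notch3 call was also lost without quantile normalization (0.0767) and with a pseudocount of 1 (0.0520). It was lost as well without the filter on low values (0.0895) and with only the compared groups in the fit (0.0670). In input Tsc1 (0.91 ± 0.18) and Irs2 (0.46 ± 0.11) were higher.

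The genes most like each member over the 16 libraries were found by Pearson's r of log2 values, as a description in which group differences and the pools shared by input and IP both enter. Mest was most like Pcdh1 (r = 0.976) and Ptprg (0.973), Grb10 like Cyfip1 (0.960) and Pacs2 (0.951), and Sgce like Mgp (0.955) and Slc3a2 (0.947). Zim1 was most like Gng5 (0.938) and Sesn3 (0.936), Plagl1 like Slc25a16 (0.932) and Zfp442 (0.930), and Ndn like Acat1 (0.928) and Acot7 (0.913). The highest values were lower for Peg10 (Dmxl1, 0.917, and Trio, 0.905), Nnat (Arpc3, 0.908, and Cox6b1, 0.893) and Peg3 (Btaf1, 0.875, and Ranbp2, 0.868). No member was among the genes most like another. Between members, Ndn and Nnat had the highest r, 0.786, and 0.865 once each group's mean was removed, while Plagl1 and Zim1 had 0.784, and 0.301 with the group means removed. The lowest was -0.769, for Plagl1 and Sgce, and -0.213 with the group means removed. Within groups the lowest was -0.798, for Grb10 and Sgce, which had 0.358 over all libraries.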

How the data were processed

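The 16 cochlear libraries (P4, 4 per group) were deposited as CPM, scaled by the authors to the reads on genes. Per the study's methods, reads were aligned to GRCm38 with HISAT2 and counted on genes with HTSeq; the submitters' processing notes name TopHat. Annotation release and strand setting are not given in the sources used here. Between 99.99% and 100% of the values above 0 in a library were whole multiples of 1 read (within 0.01 of a read), so counts were recovered for edgeR and DESeq2. Of 50316 genes listed, 2587 had no values.

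CPM were quantile normalized and log2 transformed (pseudocount 0.5). Of these genes, 16994 reached 0.5 CPM in every library of some group. They were tested in 1 limma fit of all 16 libraries (limma 3.58.1, R 4.3.3; variance trend on, p-values adjusted by Benjamini-Hochberg); edgeR 4.0.16 and DESeq2 1.42.0 were alternatives. Separation was computed on quantile normalized CPM floored at 1.08 CPM, the 10th percentile. The conditional quantile normalization the study used before clustering was not applied. Positions and exon lengths came from GENCODE M21 (GRCm38). Methods were tested on simulated data.

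Groups came from the sample labels. Replicate 4 is number 4 in the titles and 6 in the column names. Same-numbered libraries deviated together in all 4 comparisons (correlations of deviations from group means between 0.288 and 0.559, every library closest to its own number); input and IP of 1 number share a pool, whereas nothing in the labels says what the number shares between treatments. The fit with the number as a block is therefore given where it changes a call. Counting limits cover counting error only, since amplified reads are not independent molecules, and pools are the replicates behind each p-value.

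All 10 members were named, with genes of 4 related lists that met the study criteria or were among the 3 widest calls per comparison, and the 2 genes most like each member; 1 gene of these lists is not reported here. Members and lists were chosen with earlier results of these data known.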

Additional observations from a re-analysis of the deposited data

Results flagged for a closer look

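Of 36 sets of 4 libraries (9 genes in 4 groups), 2 held a library whose gap to the nearest other over the group's range was above Dixon's critical value for 4 libraries. Chance alone gives such a gap in about 1 of 20 sets. Peg3 was at 124 CPM in DTR input replicate 4, beside 85.9 to 88.6 CPM in the other 3 libraries (gap 0.929 of the range). Nnat was at 84.1 CPM in control input replicate 4, beside 101.7 to 104 CPM in the others (gap 0.868 of the range). Both are libraries of replicate 4. No member passed the test for a different change after damage in IP and in input.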

How the results depend on the processing

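Other settings (no quantile normalization, centring on library medians, pseudocounts of 0.1 and 1, no filter, a filter at 2 CPM, only the compared groups, the replicate block, edgeR with either scaling, DESeq2, and the exon length trend removed, the last chosen after seeing the data) changed 2 of 59 counts of called members by over 1.5 times: in DTR IP against control IP, 1 became 2, Mest and Sgce, without quantile normalization and with the replicate block. The block changed no other call of a member than that and that of Peg10. Of all 16994 genes, 2674 were called in DTR IP against control IP in the main fit. Without quantile normalization 2746 were called, and 3783 with the block. Leaving out 1 library gave 6 to 7 called members in control IP against input, 4 to 6 in DTR IP against input, 1 to 2 in DTR IP against control IP, 0 to 1 in DTR input against control input, and 0 for the difference of changes. The libraries that decide a member's call are named beside it. For the other named genes, 59 of 576 calls were lost when 1 library was left out and 35 of 858 under the other settings, with no change of sign. Among 963 member fold changes recomputed, none past the threshold turned sign. Values near 0 did. Without quantile normalization, Zim1 in DTR IP against control IP was 0.0424. Nnat there was -0.0155 with edgeR and TMM, -0.0153 with edgeR and DESeq2 size factors and -0.0152 with DESeq2. For the difference of changes, Ndn was -0.0365, -0.0118 and -0.0118 with the same 3. Over left-out libraries, the LFC ranged as follows. In DTR IP against control IP Grb10 ran from -0.128 to 0.0418, Zim1 from -0.36 to 0.27 and Nnat from -0.0426 to 0.13. In DTR IP against DTR input Peg3 ran from -0.16 to 0.0279 and Nnat from -0.0835 to 0.0428. In DTR input against control input Plagl1 ran from -0.0281 to 0.149 and Zim1 from -0.45 to 0.0398. For the difference of changes Peg10 ran from -0.0584 to 0.23, Zim1 from -0.18 to 0.45 and Ndn from -0.11 to 0.13. The log2 ratio of Copg2 to Mest in DTR IP against DTR input ran from -0.0051 to 0.14, while that of Zim1 to Peg3 stayed between 1.78 and 2.45 and that of Blcap to Nnat between 1.48 and 2.14. Depth limits Zim1 most, at 10 to 64 reads per input library. Dlk1 could not be tested under any setting. The fit with only the compared groups is not defined for the difference of changes.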
